A study of Mus musculus with 6 samples.

Results

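B cell precursors were followed in immune cells from mouse livers, as the 276 of 23890 deposited cell barcodes that carried transcripts of the early B lineage. Members were chosen by their own UMIs: a barcode counted as a precursor B cell when it held at least 2 transcripts of Cd79a and Cd79b together, the signalling chains of the B cell receptor, and at least 1 transcript of Vpreb1, Igll1 or Rag1. It also had no transcript of Ighd or Fcer2a, which mark mature B cells, and few transcripts of T cells, macrophages or neutrophils. Transcripts were counted as unique molecular identifiers (UMIs, 1 per captured RNA molecule) in droplet single-cell libraries, and barcodes needed at least 500 genes, 1000 UMIs of genes and at most 10% mitochondrial UMIs. The rule left 4 cells in the mock library, 181 in the AAV-sgSCR library and 91 in the AAV-sgBaat library. Levels of the genes named in the rule therefore describe how the cells were picked and support nothing else.

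The study dealt with bile acid synthesis and T cell responses in liver cancer, and each of the 3 groups was 1 mRNA library made from 3 pooled tumor samples at day 30. The mock group was mock infected. The AAV-sgSCR group received an adeno-associated virus (AAV) with a control guide, and the AAV-sgBaat group received one with a guide against Baat, which encodes the liver enzyme that conjugates bile acids with amino acids. The mock library is titled as native liver, whereas the series text lists tumor-bearing livers for all groups, and this was not resolved. Strain, age, tumor model and the cells that took up the guide are not given in the sources used here. Livers were digested, immune cells were enriched on Percoll, and CD45hi CD3+ T cells and the remaining CD45hi cells were sorted apart before loading, so the proportion of T cells was set at the bench. With 1 library per group there was no replicate check and no test. Intervals below are exact 95% intervals, Clopper-Pearson for shares and Poisson or conditional binomial for UMI sums and their ratios, and cover counting error only.

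In the adult, B cells arise mainly in the bone marrow, while before birth the liver is a main site of their production. A pro-B cell cuts and joins its heavy chain gene segments with the Rag1 and Rag2 recombinase, and terminal transferase (Dntt) adds bases at the joints. A finished heavy chain pairs with the surrogate light chain, made of Vpreb1 or Vpreb2 and Igll1, and with Cd79a and Cd79b it forms the pre-B cell receptor, which drives a burst of division. The cell then shuts off the surrogate light chain, turns the recombinase to the kappa and lambda light chain genes, and becomes an immature B cell with surface IgM.

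The start regions of the 3 genes that decided membership are shown because a transcript of at least 1 of them admitted each cell. Vpreb1 (chromosome 16, bases 16868401 to 16869255) and Igll1 (chromosome 16, bases 16860671 to 16863985) are neighbours, and Rag1 lies on chromosome 2 (bases 101638252 to 101649532). All 3 genes are on the minus strand of GRCm38.p6, the assembly of the RefSeq table used, which corresponds to mm10. Each line gives the 150 bases upstream of the annotated start, 5′ to 3′ on the gene's strand, from chr16:16869256-16869405, chr16:16863986-16864135 and chr2:101649533-101649682 in that order. Capitals mark CAGGTG or its reverse complement CACCTG, an E-box of the form bound by the B lineage factor E2A (Tcf3).
Vpreb1: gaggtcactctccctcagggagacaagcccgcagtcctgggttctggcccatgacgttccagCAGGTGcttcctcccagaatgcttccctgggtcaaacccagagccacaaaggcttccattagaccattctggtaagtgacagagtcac
Igll1: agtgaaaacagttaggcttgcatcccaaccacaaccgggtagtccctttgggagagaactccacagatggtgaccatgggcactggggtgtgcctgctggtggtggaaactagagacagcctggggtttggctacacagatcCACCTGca
Rag1: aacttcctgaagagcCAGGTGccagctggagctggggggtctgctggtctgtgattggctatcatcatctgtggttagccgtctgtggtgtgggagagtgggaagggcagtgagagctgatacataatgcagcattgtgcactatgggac
The motif began 88 bases upstream of the start in Vpreb1, 8 bases upstream in Igll1 and 135 bases upstream in Rag1. On either strand it was present in 10.6% of the 32851 upstream windows of this length. Of the 8 genes searched, Vpreb2, Vpreb3, Rag2, Dntt and Cd79a did not hold these letters in their windows. For Vpreb2 and Vpreb3 the window lay inside the annotated span of the gene and not before its first base. The matches above describe the letters and are not measured binding sites.

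The label was set beside genes outside the rule and marker lists of other cells. Vpreb3, an endoplasmic reticulum protein of the B lineage, had a UMI in 176 of 181 AAV-sgSCR cells and 89 of 91 AAV-sgBaat cells. Ebf1, the transcription factor that sets B cell fate, had one in 179 and 89. In mature B cells Vpreb3 was found in 178 of 313 and 85 of 184, and Ebf1 in 305 and 173. Detection of Ebf1 thus marked the B lineage and did not set precursors apart from mature B cells. Summed T cell markers stood at 144 CPM (UMIs per 1000000 gene UMIs of the cells summed) in AAV-sgSCR and 131 CPM in AAV-sgBaat precursors, against 159 and 301 CPM in mature B cells of the same libraries. The T cell list includes Cd3d, Cd3e and Cd3g, which were limited in both classes, so part of these sums was set in advance. Summed plasmacytoid dendritic cell markers stood at 1800 and 799 CPM, against 2200 and 2630 CPM in mature B cells, which share several of these genes. Markers above mature B cells in both libraries were those of plasma cells (810 and 1040 CPM, with Tnfrsf17 at 0), erythroid cells (104 and 118 CPM), immature T cells (102 and 104 CPM) and myeloid progenitors (138 and 45 CPM). On the immature T cell list, Arpp21 alone held 88 of 119 UMIs in AAV-sgSCR precursors and 38 of 53 in AAV-sgBaat precursors. In mature B cells it held 2 of 34 and 3 of 30, so the higher sum of that list rested on Arpp21. At least 3 UMIs over Tyrobp, Fcer1g, Siglech, Trac, Trbc1 and Nkg7, called foreign transcripts below, were found in 11 of 181 and 3 of 91 cells and in 1 of the 4 mock cells. Without those cells the plasmacytoid sum was 1310 and 774 CPM, with Siglech and Klk1 at 0, and the myeloid progenitor sum 26.4 and 14.3 CPM. The part of these transcripts in the results was not tested beyond leaving those cells out. Results that rest on the 15 cells with foreign transcripts are given with and without them, or with the share of UMIs those cells held.

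T cells with UMIs of the rule genes were counted as a background for the rule. Whether those UMIs were free RNA or made by the T cells was not tested. Among T cells outside a set that expressed Dntt and Arpp21, at least 1 UMI of Vpreb1, Igll1 or Rag1 was found in 10 of 1678 mock cells (0.596%), 43 of 3140 AAV-sgSCR cells (1.37%, interval 0.993 to 1.84) and 74 of 1842 AAV-sgBaat cells (4.02%, interval 3.17 to 5.02). At least 2 such UMIs occurred in 0 of 3140 AAV-sgSCR T cells, which allows up to 0.117%, and in 9 of 1842 AAV-sgBaat T cells (0.489%). Members with a single UMI of the rule genes, just inside the limit, numbered 54 of 181 (29.8%) and 23 of 91 (25.3%). Cells just outside, with no such UMI but otherwise within the rule, numbered 261 and 137. In barcodes of the B lineage that did carry Ighd or Fcer2a, the rule genes were seen in 8 of 2780 (0.288%), 37 of 350 (10.6%) and 15 of 199 (7.54%) in mock, AAV-sgSCR and AAV-sgBaat, so the border with mature cells was not sharp in the AAV libraries.

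Precursors made up a small part of the mock B lineage and over 20% of it in both AAV libraries. They were 4 of 2992 B lineage barcodes in mock (0.134%, interval 0.0364 to 0.342), 181 of 792 in AAV-sgSCR (22.9%, interval 19.97 to 25.9) and 91 of 427 in AAV-sgBaat (21.3%, interval 17.5 to 25.5). The intervals of the AAV libraries overlapped each other and lay far above that of mock. The denominator moved as well, since mature B cells, with Ighd or Fcer2a and none of the rule genes, numbered 2772, 313 and 184. Over barcodes with under 2 Cd3 transcripts the precursor share was 0.102%, 5.17% and 3.39%, with the AAV libraries again above mock and AAV-sgSCR above AAV-sgBaat. With at least 3 UMIs of the rule genes required, the shares of the B lineage were 0.0334%, 13.6% and 13.1%. Whether the difference from mock goes with the virus, the tumors or the handling of 1 library cannot be told apart. No barcode was shared between members of different libraries, and 10 to 25 barcodes were shared by any pair of libraries over all cells.

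The 4 mock cells held 17214 UMIs in all, against 1166958 in the AAV-sgSCR members and 510627 in the AAV-sgBaat members. They had 1 UMI of Vpreb1, 1 of Igll1 and 5 of Rag1 in 3 cells, none of Dntt, and 57 of Igkc and 114 of Ighm, and all 4 had at least 5 light chain UMIs. These are too few for a level, and what follows concerns the AAV libraries. Their members had a median of 3887 and 2918 UMIs per cell and 1525 and 1321 genes, and a median mitochondrial share of 5.74% and 3.17%. Mature B cells of the same libraries had 5.87% and 3.53%, so both classes had the lower share in AAV-sgBaat.

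Precursors of both AAV libraries fell along 2 ends, marked by surrogate light chain on one side and by kappa or lambda light chain on the other. Cells with at least 10 UMIs of Vpreb1 and Igll1 together are called SLC-high below, and the rest SLC-low. This limit was chosen after the values were seen and cuts a range, with 20 AAV-sgSCR and 7 AAV-sgBaat cells at 5 to 14 such UMIs. SLC-high cells were 75 of 181 (41.4%, interval 34.2 to 49.0) and 44 of 91 (48.4%, interval 37.7 to 59.1), with medians of 32 and 24 surrogate light chain UMIs per cell. Vpreb1 and Igll1 were found together in 88 of the 115 AAV-sgSCR cells that had either (76.5%) and in 53 of 65 AAV-sgBaat cells (81.5%). The remaining 66 and 26 members entered through Rag1 without either surrogate light chain gene.

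At least 5 UMIs of Igkc and Iglc1 to Iglc3, the constant parts of the kappa and lambda light chains, were found in few SLC-high cells and most SLC-low cells. The counts in AAV-sgSCR were 11 of 75 SLC-high cells (14.7%, interval 7.56 to 24.7) and 95 of 106 SLC-low cells (89.6%, interval 82.2 to 94.7). AAV-sgBaat had 2 of 44 (4.55%, interval 0.555 to 15.5) and 37 of 47 (78.7%, interval 64.3 to 89.3). Light chain UMIs reached this limit in 1.53% and 0.706% of the T cells, which had been picked without Cd79a or Cd79b UMIs. The median cell had 1 and 0 light chain UMIs in the SLC-high sets and 16.5 and 11 in the SLC-low sets. SLC-high cells were also deeper, with a median of 5255 and 5688 UMIs against 3103 and 2226, so their lower light chain counts did not go with lower depth.

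**Figure D1:**
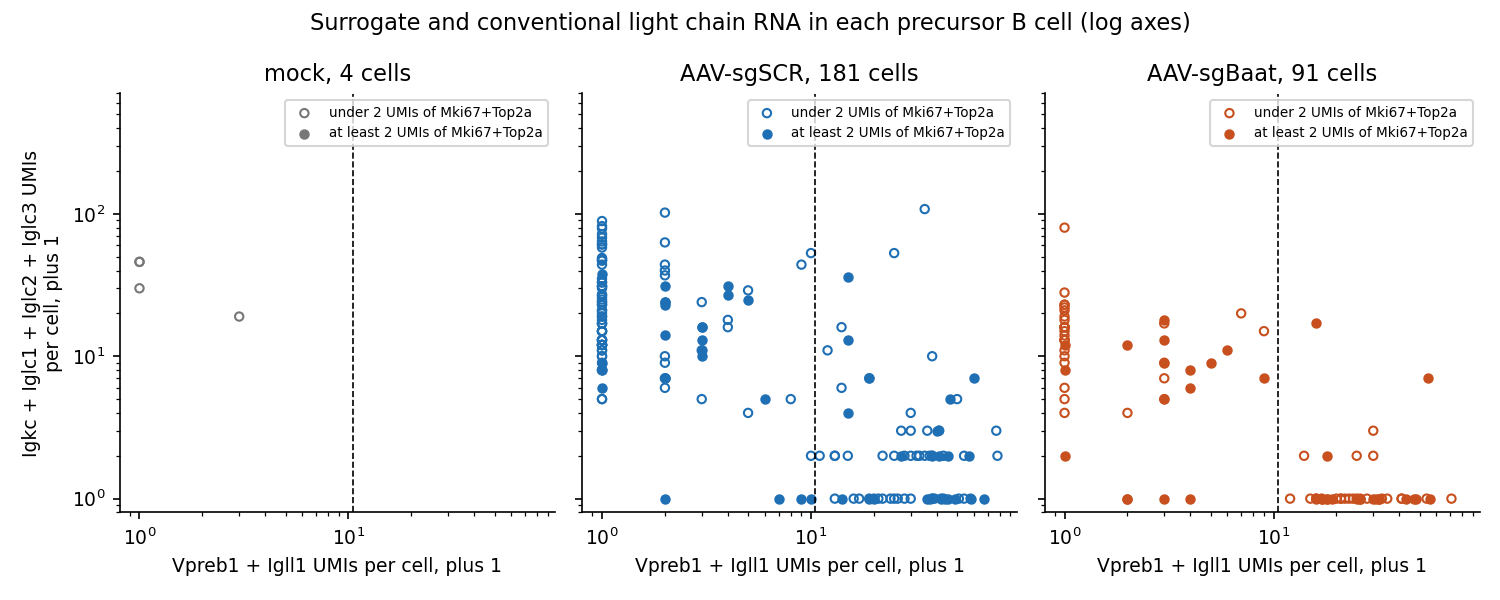
Light chain UMIs (Igkc and Iglc1 to Iglc3) against surrogate light chain UMIs (Vpreb1 and Igll1) in each precursor B cell, 1 panel per mRNA library, on log axes of UMIs plus 1. The dashed line stands at the limit of 10 surrogate light chain UMIs, and filled points are cells with at least 2 UMIs of Mki67 and Top2a. In AAV-sgSCR and AAV-sgBaat most cells to the right of the line lie low on the light chain axis, and the 4 mock cells all lie to the left of it.

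Genes known from early B cell stages did not share 1 direction between the sets: Vpreb2, Dntt, Lef1 and Erg were higher in SLC-high cells, while Il7r and Sox4 were lower. Of 2846 genes with enough UMIs, 2.99% were at least 2-fold higher in SLC-high than SLC-low cells of both libraries and 2.6% at least 2-fold lower. Vpreb2, which had no part in the limit but is a near-identical paralog of Vpreb1 and may share reads with it, stood at 483 CPM in SLC-high and 7.68 CPM in SLC-low cells of AAV-sgSCR. AAV-sgBaat had 334 CPM and no UMI, at least 18.6-fold higher against a floor of 3 UMIs over the summed cells. Dntt, the terminal transferase, was at 529 and 82.6 CPM in AAV-sgSCR and at 715 and 18 CPM in AAV-sgBaat, log2 differences of 2.68 and 5.31. The transcription factor Lef1 was at 342 and 49.9 CPM, and at 311 and 30.0 CPM in AAV-sgBaat. Erg, another transcription factor of early B cells, was at 102 and 11.5 CPM in AAV-sgSCR, and at 87.2 CPM against no UMI in AAV-sgBaat. Arpp21, Adgrg1 and Cd9 followed the same order, with log2 differences of 4.51 and 2.58, 1.95 and 2.39, and 2.10 and 1.83. Il7r had log2 differences of -1.05 and -0.84, the factor Sox4 -0.88 and -0.86, and Rag1, which the rule used, -0.48 and -0.79. SLC-low cells without Vpreb1 or Igll1 had to carry Rag1, so its order was set in part by the rule. Rag2, outside the rule, had 1.27 (interval 0.25 to 2.41) in AAV-sgSCR, and 11 and 2 UMIs in AAV-sgBaat, too few to read. The log2 differences of Cd93 were -0.14 and 0.26, and those of Mki67 0.36 and -0.06, without a common sign. The depth of the sets differed, so Dntt was also counted in cells thinned to 1000 UMIs. It was then seen in 36 of 75 SLC-high (48.0%) and 2 of 106 SLC-low cells (1.89%) of AAV-sgSCR, and in 25 of 44 (56.8%) and 1 of 47 (2.13%) of AAV-sgBaat. None of 3140 and 1842 T cells had a Dntt UMI after thinning, which allows up to 0.117% and 0.200%, but Dntt-expressing cells had been set apart from this T cell class.

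Light chain genes and several other genes were higher in SLC-low cells. Igkc was at 442 CPM in SLC-high and 3373 CPM in SLC-low cells of AAV-sgSCR, and at 81.4 and 2500 CPM in AAV-sgBaat, against 90.6 and 411 CPM in the T cells. Thinned to 1000 UMIs, it was seen in 3 of 44 SLC-high cells of AAV-sgBaat (6.82%, interval 1.43 to 18.7) and in 4.29% of its T cells, a difference within the counting interval. Iglc3 was at 15.5 and 405 CPM in AAV-sgSCR, and had no UMI against 282 CPM in AAV-sgBaat. Cd2, an adhesion receptor gained at the small pre-B stage and also made by T cells, was at 6.19 and 150 CPM in AAV-sgSCR and had no UMI against 114 CPM in AAV-sgBaat. Ly6d, a surface protein of committed B lymphoid cells, was at 325 and 2382 CPM, and at 279 and 1031 CPM in AAV-sgBaat. It was also on the plasmacytoid marker list. Cells with foreign transcripts held 475 of the 1450 Ly6d UMIs of AAV-sgSCR members (32.8%) and 24 of 268 in AAV-sgBaat (8.96%). Ighm, the mu heavy chain, was at 1159 and 3146 CPM, and at 1166 and 3436 CPM. The chemokine receptor Cxcr4 had log2 differences of -1.29 and -1.78 for SLC-high over SLC-low cells, and the factor Spib -1.65 and -2.15. Vpreb3 and Pax5 differed less, by 0.09 and -0.42 and by -0.02 and -0.66 on the same scale, so these B lineage genes were present in both sets.

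**Figure D2:**
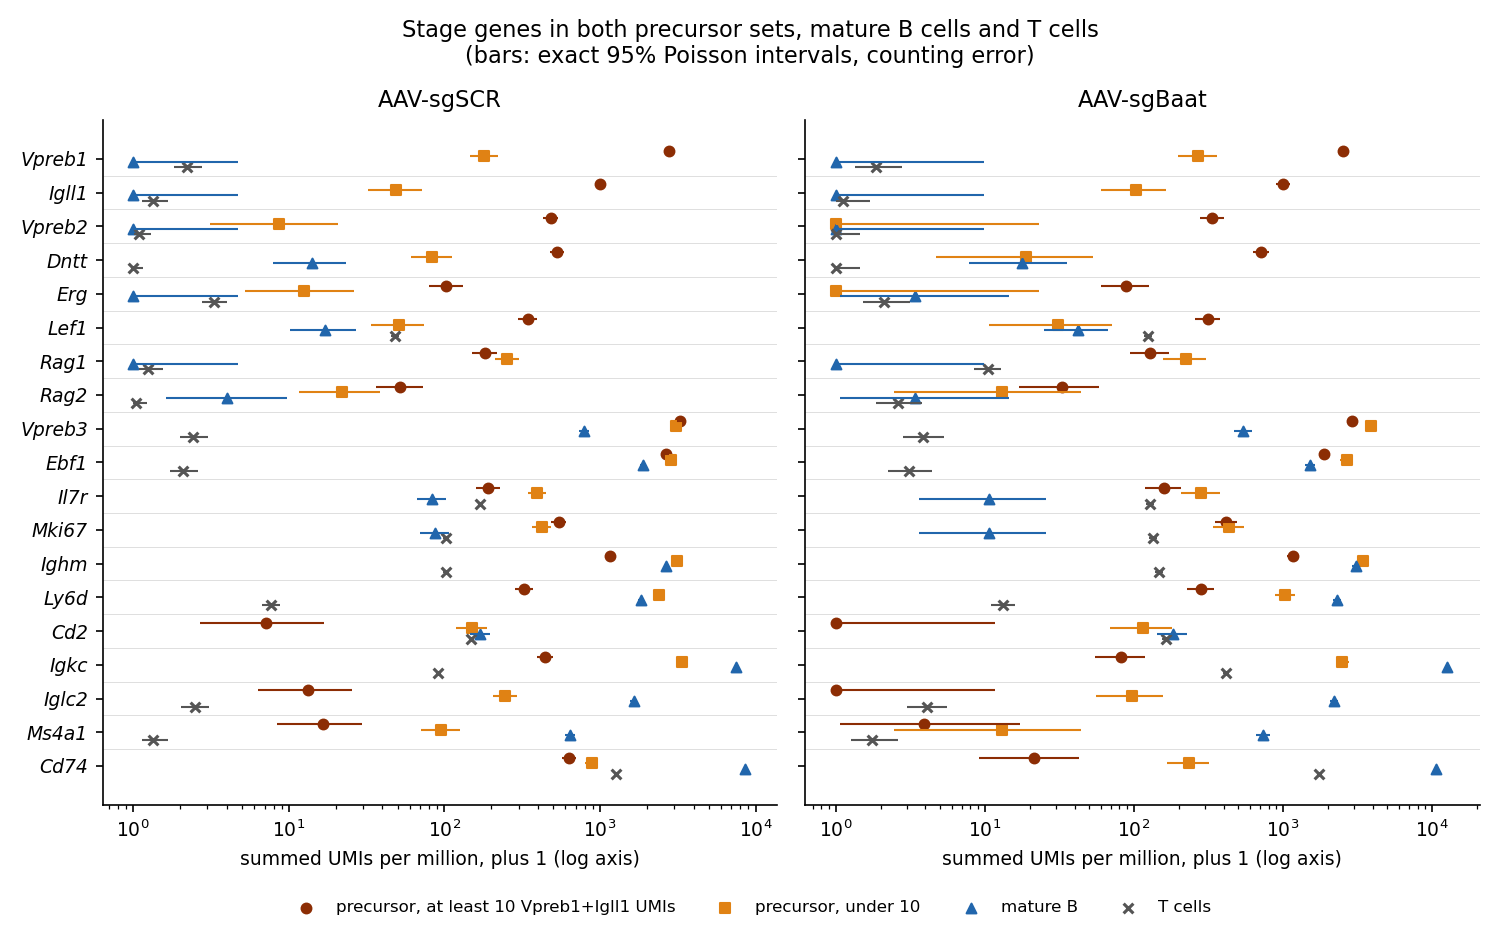
Summed level of 19 stage genes in CPM plus 1 on a log axis, in AAV-sgSCR and AAV-sgBaat, for SLC-high precursors (circles), SLC-low precursors (squares), mature B cells (triangles) and T cells (crosses), with exact Poisson intervals as bars. Vpreb2, Dntt, Lef1 and Erg lie highest in SLC-high cells, and Igkc and Cd2 lie lower there than in SLC-low cells in both libraries.

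Within SLC-high cells, Rag1 was lower in dividing cells than in the others. Cells with at least 2 UMIs of Mki67 and Top2a, markers of dividing cells, are called cycling here. Within SLC-high cells of AAV-sgSCR, Rag1 had 104 UMIs in 36 of 52 cells that were not cycling and 13 UMIs in 4 of 23 cycling cells, or 395 and 33.9 CPM. AAV-sgBaat had 37 UMIs in 14 of 24 cells and 7 UMIs in 6 of 20 cells, or 420 and 27.4 CPM. The log2 differences were 3.54 (interval 2.70 to 4.50) and 3.94 (2.75 to 5.35), against 5.15% of 1748 genes at least 2-fold higher in cells not cycling in both libraries. Cycling cells were deeper, with a median of 13087 against 4353 UMIs in AAV-sgSCR and 10414 against 2830 in AAV-sgBaat, and a CPM level falls as depth rises at a fixed number of transcripts. Rag1 was also lower per cell, at 0.565 against 2.00 UMIs and 0.350 against 1.54 UMIs. Dntt was not lower per cell in cycling cells, with 6.04 against 3.9 UMIs in AAV-sgSCR and 6.15 against 5.12 in AAV-sgBaat. Vpreb1 was nearly level per cell at 25 against 23.2 and 20.1 against 19.2 UMIs, but the SLC-high limit used Vpreb1 and set these counts in part. Rag2, the partner of Rag1, had 0.304 UMIs per cycling cell against 0.500 in AAV-sgSCR (18.3 and 98.7 CPM). In AAV-sgBaat it had too few UMIs to read, 7 in cycling cells and 4 in the others, and the per-cell order was the other way (0.350 against 0.167). Within SLC-low cells Rag1 was at 437 against 37.3 CPM and 536 against 29 CPM, but there Rag1 itself had admitted many cells.

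The share of cycling precursors was well above that of mature B cells in both AAV libraries. It was 47 of 181 (26%, interval 19.7 to 33.0) in AAV-sgSCR and 37 of 91 (40.7%, interval 30.5 to 51.5) in AAV-sgBaat, against 4.47% and 0.543% of mature B cells. SLC-high cells had 30.7% and 45.5% cycling and SLC-low cells 22.6% and 36.2%. Thinned to 1000 UMIs per cell, the shares were 28 of 181 (15.5%, interval 10.5 to 21.6) and 12 of 91 (13.2%, interval 7.0 to 21.9). Over 20 random thinnings the AAV-sgSCR share had a median of 13.8% (12.2 to 17.7) and the AAV-sgBaat share 19.8% (13.2 to 24.2), so the order of the libraries depended on the draw. Thinned to 2000 UMIs, with 12 and 19 shallower cells left out, the shares were 21.9% (15.9 to 28.9) and 38.9% (27.6 to 51.1). A difference between the libraries was not detectable at the lower depth. T cells thinned to 1000 UMIs had 2.55% and 5.54%.

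Precursors were set beside the mature B cells of their own library as a description, since the rule chose both classes. Of 4875 genes, 10.9% were at least 2-fold higher and 5.72% at least 2-fold lower in precursors of both libraries. Outside the rule genes the highest were Vpreb2, without a UMI in mature cells, and Dntt, with log2 differences of 4.67 in AAV-sgSCR and 4.85 in AAV-sgBaat. Myl10, a myosin light chain, had 4.31 and 4.46, the adhesion receptor Adgrg1 3.9 and 4.27, and Arpp21 4.65 and 3.36. Ptgr1, Cplx2, Gfra1 and the division genes Tpx2 and Ccnb1 completed the 10 highest, with log2 differences from 3.10 to 5.12. Among the lowest were the B cell scaffold Bank1 (-5.79 and -5.10), the oxysterol receptor Gpr183 (-4.62 and -4.64), the IgM receptor Fcmr (-4.16 and -6.81) and Ms4a4c (-5.60 and -5.22). The interleukin 7 receptor Il7r, which sustains early B cells, had 1.78 and 4.36, and Cd93, a marker of immature B cells, 2.54 and 2.61. All 4 measured recombination genes, 6 of 7 early progenitor and pro-B genes and 17 of 20 proliferation genes were at least 2-fold higher in both libraries, while 12 of 13 mature B genes and 10 of 12 small pre-B and immature B genes were at least 2-fold lower. The median of all genes was 0.24 and 0.32.

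Members of the AAV-sgBaat and AAV-sgSCR libraries were then compared gene by gene. Of 6473 genes with at least 20 UMIs over both libraries, 81 (1.25%) were at least 2-fold higher in AAV-sgBaat and 523 (8.08%) at least 2-fold lower, and the median of all genes was -0.11 on the log2 scale. Relative to the median gene the counts were 141 higher and 419 lower, and with a mean over cells in place of a sum they were 224 and 637. Without the cells with foreign transcripts the shares were 1.71% and 7.04% of 5976 genes. The genes of the surrogate light chain and recombinase lay near this middle. Vpreb1 was at 1607 CPM in AAV-sgSCR and 1776 CPM in AAV-sgBaat, Igll1 at 578 and 707 CPM, and Rag1 at 213 and 159 CPM, which describe the rule. Vpreb3, outside the rule, was at 3195 and 3216 CPM, a log2 difference of 0.01 (interval -0.08 to 0.09). Rag2 was at 37.7 and 25.5 CPM, with an interval on the difference of -1.58 to 0.35 that includes 0. Dntt was at 330 and 488 CPM, a log2 difference of 0.56 (0.33 to 0.80), while in SLC-low cells alone it was lower in AAV-sgBaat, at 18 against 82.6 CPM. Ebf1 was at 2739 and 2144 CPM (-0.35), Pax5 at 213 and 235 CPM (0.14), Il7r at 281 and 198 CPM (-0.51), Cd93 at 128 and 88.1 CPM (-0.53), Kit had 23 and 8 UMIs (-0.33), and Mki67 was at 488 and 419 CPM (-0.22). Lin28b, which marks fetal-type lymphoid precursors, had no UMI in either library, and Ighm was at 2045 and 1907 CPM (-0.10).

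Igkc was lower in AAV-sgBaat precursors, at 871 against 1750 CPM, a log2 difference of -1.01 (interval -1.16 to -0.86). The difference was -2.44 in SLC-high cells and -0.43 in SLC-low cells. In mature B cells it had the other sign, at 0.75. T cells had 411 CPM of Igkc in AAV-sgBaat and 90.6 CPM in AAV-sgSCR, but 1 AAV-sgBaat T cell barcode held 593 of that library's 3289 UMIs. Thinned to 1000 UMIs, Igkc was detected in 58.6% of AAV-sgSCR and 41.8% of AAV-sgBaat members and in 10.2% and 4.29% of T cells, so by share of cells both classes were lower in AAV-sgBaat. The part of free RNA in the difference was not tested.

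The highest ratio in AAV-sgBaat was that of Hspa1a, an inducible heat shock chaperone, with 31 UMIs in 10 cells and at most 7 in 1 cell against 1 UMI in AAV-sgSCR. The plain CPM ratio was 70.8, a log2 difference of 6.15 with a counting interval of 3.56 to 11.50, and the same gene was higher by 4.11 in mature B cells. After thinning it was seen in 3 of 91 and 0 of 181 members, and in 8.96% and 0.955% of T cells, and T cells can make it themselves. SLC-high cells of AAV-sgBaat held 28 of the 31 UMIs, in 7 cells. The part of free RNA in this difference was not tested. The other genes of the 10 highest had few UMIs. Foxd2os, a noncoding RNA, had 11 and 20 UMIs in AAV-sgSCR and AAV-sgBaat (2.05, interval 0.92 to 3.26), the repair exonuclease Exo1 8 and 12 (1.78), and the cytokine receptor kinase Jak2 9 and 13 (1.72). Czib, Gemin5, Arih2, Zmynd19, Zdhhc16 and Oaf had log2 differences of 1.61 to 1.80.

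The lowest ratios fell on antigen presentation genes and on genes of other blood cells, and several of them shrank when few cells were left out. Cd74, the invariant chain of MHC class II, had 868 UMIs in AAV-sgSCR and 46 UMIs in AAV-sgBaat, a log2 CPM difference of -3.05 (interval -3.51 to -2.62), and -2.41 without the cells with foreign transcripts. H2-Aa, an MHC class II chain, was at 335 and 39.2 CPM (-3.10), and -1.73 without those cells, of which 1 held 204 UMIs. H2-Eb1, another class II chain, had 246 and 16 UMIs (-2.75), and -1.46 without them. The 11 AAV-sgSCR cells with foreign transcripts held 57.4% of that library's Cd74 UMIs, 70.3% of H2-Aa and 74.0% of H2-Eb1. The T cell class, which had no macrophage limit, had 1267 and 1736 CPM of Cd74 and 567 and 834 CPM of H2-Aa. These sums lay above the precursors of both libraries, and which cells of the class held them was not tested. Mature B cells had log2 differences of 0.30 and 0.41. Tyrobp, a myeloid adaptor that helped define the foreign cells, went from -3.03 to -0.63, Ctsl from a plain -3.56 (54 and 2 UMIs) to -1.05, Ctsh from -2.92 to -1.16 and Ahnak from -2.81 to -1.37.

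Other low genes kept low ratios without those cells. Ms4a1, the CD20 antigen of maturing B cells (chromosome 19, bases 11249679 to 11266149), had 59 UMIs in 19 AAV-sgSCR cells, at most 10 in 1 cell, and 3 UMIs in 3 AAV-sgBaat cells, a log2 difference of -3.11 (interval -5.42 to -1.49), and -3.02 without the foreign cells, while mature B cells had 0.20. S100a4, a calcium-binding protein of myeloid and activated cells, was at 111 and 9.79 CPM, -3.50 (interval -5.14 to -2.24), and -3.51 without them, though 1 AAV-sgSCR cell held 42 of its 129 UMIs. The foreign cells held 63 of those 129 UMIs (48.8%) and 2 of the 5 in AAV-sgBaat, which left 66 and 3. S100a4 was lower in AAV-sgBaat mature B cells too, at 9.63 against 47 CPM, and T cells, which make it, had 627 and 676 CPM. Ppp1r21, a subunit of an endosomal complex (chromosome 17, bases 88530124 to 88588367), had 129 UMIs in 47 AAV-sgSCR cells and 8 UMIs in 7 AAV-sgBaat cells, or 111 and 15.7 CPM. Its log2 difference was -2.82 (interval -4.06 to -1.80) over all members, -4.25 in SLC-high cells and -0.23 in SLC-low cells. Igha, the IgA heavy chain of plasma cells, had 38 UMIs in 29 AAV-sgSCR cells and 3 UMIs in 3 AAV-sgBaat cells. After thinning, Igha was seen in 4.97% of AAV-sgSCR precursors and 4.43% of the T cells of that library. Neutrophil markers likewise summed to 386 and 145 CPM in precursors and to 633 and 207 CPM in mature B cells. The neutrophil list includes S100a8 and S100a9, which were limited in both classes, so part of these sums was set in advance.

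**Figure D3:**
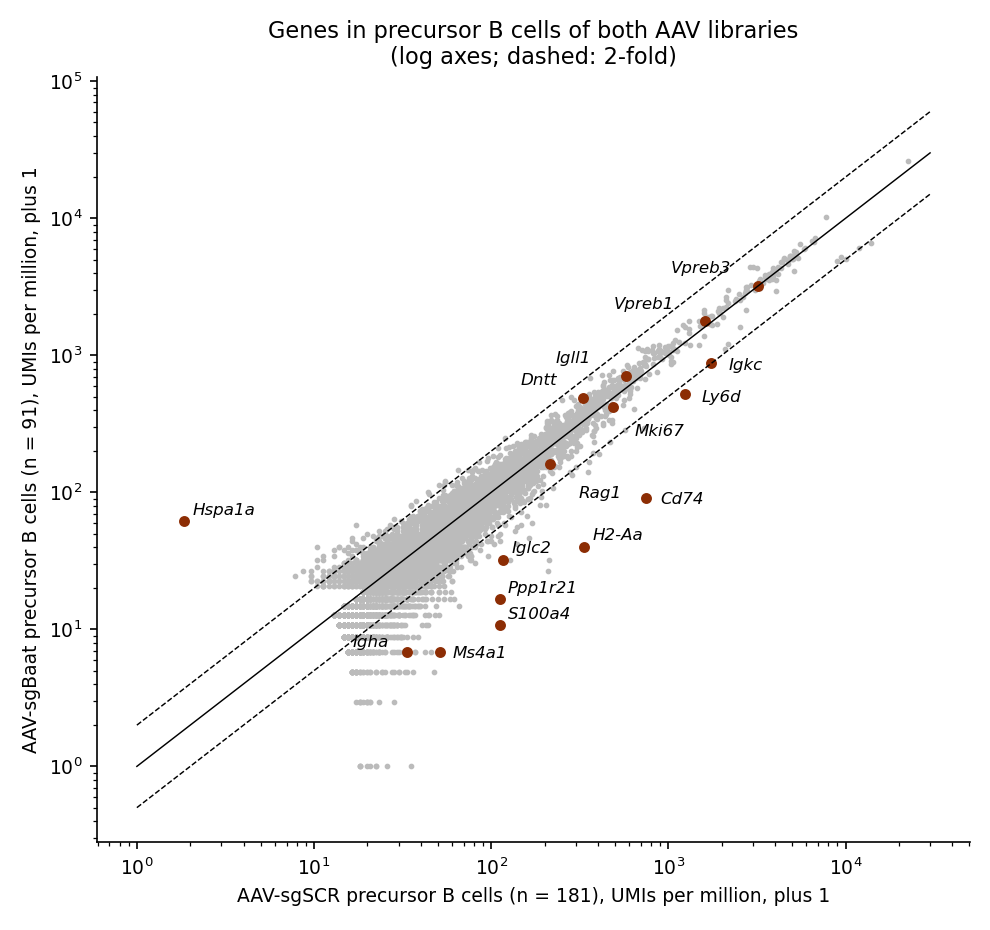
Level of each eligible gene in AAV-sgSCR precursors (x axis) and AAV-sgBaat precursors (y axis), in CPM plus 1 on log axes, 1 point per gene, with dashed lines at a 2-fold difference. Vpreb3, Vpreb1 and Igll1 lie between the lines, Igkc lies at the lower line, Ppp1r21 lies below it, and Hspa1a, with 1 UMI in AAV-sgSCR, lies above.

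Gene lists were read by their median log2 difference (AAV-sgBaat over AAV-sgSCR) beside the all-gene median of -0.11 and the 8.08% of genes at least 2-fold lower. Of all 6473 genes, 2633 were higher and 3840 lower in AAV-sgBaat, which is the background for the counts of members. The surrogate light chain and pre-B receptor list had a median of -0.09 over 14 genes, with 5 higher, 9 lower and none past 2-fold. Vpreb1, Igll1, Cd79a and Cd79b on this list, and Rag1 on the recombination list, were rule genes, so both medians describe the rule in part. Recombination genes had -0.30 over 10 genes, with Rag1 and Rag2 lower and the chromatin proteins Hmgb2 (0.62) and Hmgb1 (0.46) higher, and this median was 0.24 in cells with at most 5% mitochondrial UMIs. B lineage factors had -0.25, 19 of 22 of them lower, including Spib (-1.22) and Irf8 (-1.09, or -0.42 without foreign cells). The small pre-B and immature B list had -0.98, with 12 of 13 genes lower and 6 of them at least 2-fold, including Iglc1 (-1.10), Iglc2 (-1.88), Iglc3 (-1.04) and Ms4a1. That median was -0.62 in SLC-high and -0.52 in SLC-low cells and 0.20 in mature B cells, and among members with at most 5% mitochondrial UMIs it was 0.06, so the direction of this list depended on that limit. The mature B list, from which the rule removed Ighd and Fcer2a, had -1.10 with 5 of 10 genes at least 2-fold lower, and -0.68 without foreign cells. Homing genes had -0.80, or -0.15 without foreign cells, with the integrin Itga4 at -0.93 and Cxcr4 at -0.75. The early progenitor and pro-B list went from -0.57 to -0.13 in the same way.

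Proliferation genes had a median of 0.55, with 17 of 20 higher in AAV-sgBaat, beside 2633 of 6473 genes in all, and none past 2-fold. Rrm2, a ribonucleotide reductase subunit, had 0.95, the replication helicase subunits Mcm5 and Mcm6 both 0.89, and cyclin Ccnb1 0.85, while Top2a had -0.10. The list's median was 0.53 in SLC-high and 0.23 in SLC-low cells, -2.0 in mature B cells, and 0.20 among members with at most 5% mitochondrial UMIs. Each of the 13 mitochondrial protein genes was lower, their median being -0.96, and 6 were at least 2-fold lower, such as mt-Nd6 (-1.46) and mt-Nd5 (-1.32). Mature B cells had -0.78 for the same list. Nuclear oxidative phosphorylation genes had 0.25, with 12 of 13 higher against the same background, and -0.06 in mature B cells. The immediate early and heat shock list had 0.42, with Hspa1b at 2 and 19 UMIs (plain log2 difference 4.44, interval 2.39 to 7.59), Atf3 at 1.93 and Fosb at -1.52. Type I interferon genes had 0.10, interleukin 7 receptor signalling -0.20, survival genes -0.07, endoplasmic reticulum stress genes 0.05 and MHC class I genes -0.08. Only 2 of 7 fetal programme genes and none of the 9 bile acid receptor genes had enough UMIs, so neither list was read.

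**Figure D4:**
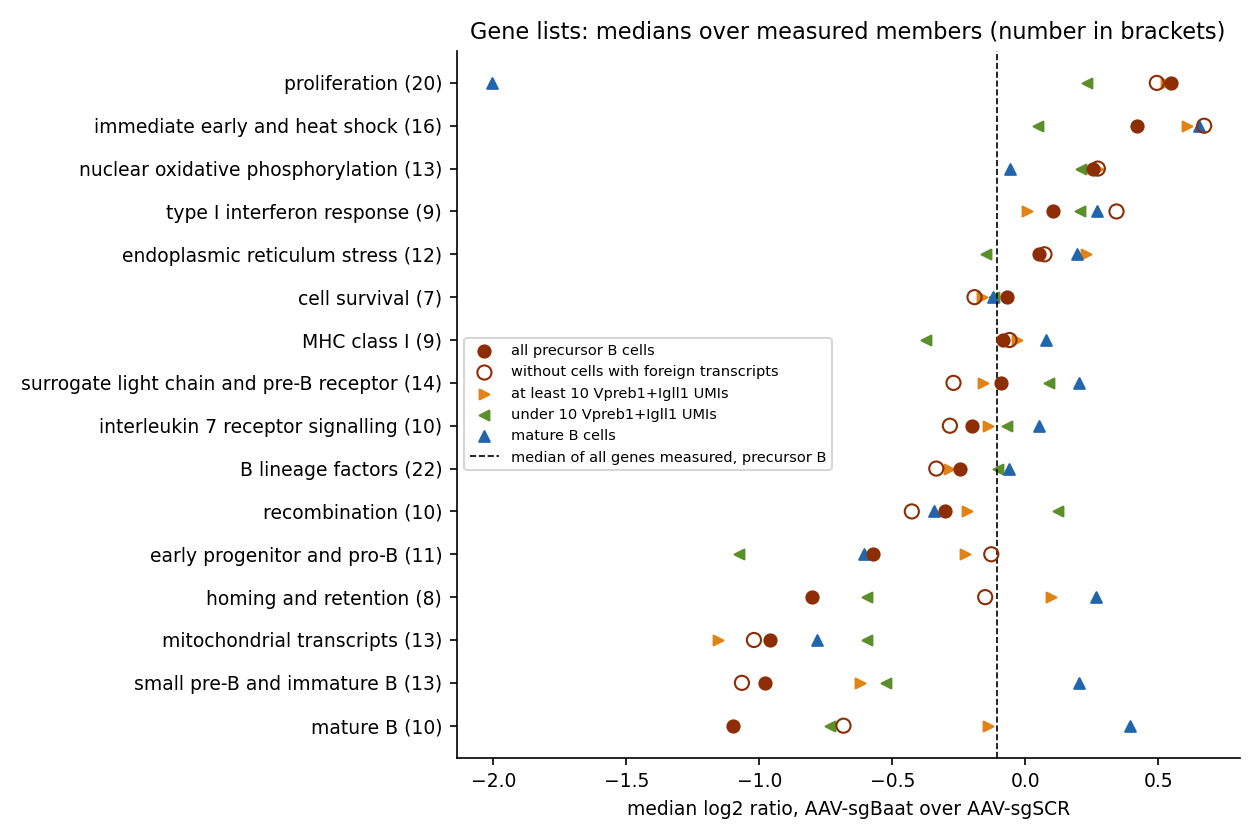
Median log2 difference of AAV-sgBaat over AAV-sgSCR for 16 gene lists, in all precursors, in precursors without foreign transcripts, in SLC-high and SLC-low precursors, and in mature B cells. The dashed line is the median of all genes in precursors (-0.11). The proliferation list lies to the right of it in the precursor sets and at -2.0 in mature B cells, and the mitochondrial list lies to the left in every set drawn.

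The antibody tags counted in the same droplets, CD90.1 and CD90.2, mark T cells, and most precursors carried them at the level of mature B cells. The median precursor had 29 tag UMIs of CD90.1 in AAV-sgSCR and 33 in AAV-sgBaat, near the 29 and 42.5 of mature B cells, whereas T cells had 464.5 and 174. At least 100 UMIs of CD90.1 were found on 8 of 181 and 10 of 91 precursors, and of CD90.2 on 32 and 10. For CD90.2 the medians were 31 and 19 in precursors, 23 and 12 in mature B cells and 173.5 and 158.5 in T cells. SLC-high cells had more CD90.2 tag than SLC-low cells in both libraries, at 67 against 23.5 and 39 against 14 UMIs, and were also deeper in RNA. The T cells with a Dntt or Arpp21 transcript, 177 in AAV-sgSCR and 2117 in AAV-sgBaat, were picked by these genes and without Cd79a or Cd79b UMIs. Their Dntt (432 and 409 CPM) and Arpp21 (258 and 246 CPM) levels therefore describe how they were picked. Their CD90.1 tag medians were 3533 and 2058 UMIs, far from that of the median precursor. Vpreb1 was near 1 CPM in them, but precursors had been picked by Vpreb1 among other genes.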

How the data were processed

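Gene expression was measured in 3 mRNA libraries by droplet single-cell RNA sequencing with antibody tags. Of the 6 samples, the 3 antibody tag samples had no files of their own, and tag counts came with the mRNA matrices under the names CD90.1, CD90.2 and F4/80, while the label of 1 tag sample names a hashtag instead. The deposited values are raw UMI counts per gene and barcode from Cell Ranger 6.0.1, per the file headers, on mm10, per the submitters' processing notes. The labels' protocols name a 3′ kit on a NovaSeq. Barcodes deposited numbered 6431, 8073 and 9386 for mock, AAV-sgSCR and AAV-sgBaat, and 6068, 7332 and 7094 passed the limits on genes, UMIs and mitochondrial share, with 32005400, 62570529 and 48359443 gene UMIs. Lists, members and limits were chosen with earlier results of these data known.

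UMIs were summed over the cells of a library and scaled to CPM. Log2 differences are ratios of CPM, with sums under 3 UMIs set to 3, and plain ratios without that floor are given where a library had 1 to 3 UMIs. Exact conditional intervals at 95% went with them. A gene was read when it had at least 20 UMIs over both libraries and a UMI in at least 10 cells of the library with the higher value. Named genes were the 10 highest and 10 lowest ratios, leaving out mitochondrial, ribosomal protein, haemoglobin, hepatocyte, receptor variable, sex-linked and unnamed genes, besides fixed genes and up to 4 members of each list, and other genes were named after their values were seen. Shares of cells at equal depth came from thinning each cell to 1000 UMIs. With 1 library per group no test was run and no p-value exists. Doublets were limited by the rule on foreign transcripts, and leaving out the highest Scrublet scores removed 0, 3 and 2 members. Computation used Python 3.11.15 with numpy 2.4.6, scipy 1.17.1, pandas 2.3.3, matplotlib 3.10.9 and scanpy 1.11.5, and scripts were tested on simulated data.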

Additional observations from a re-analysis of the deposited data

Results flagged for a closer look

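Barcodes with precursor B cell transcripts that were left out because they also held T cell, macrophage or neutrophil transcripts are a signal outside the comparisons above. They were 21 of 7332 barcodes in AAV-sgSCR (0.286%, Clopper-Pearson interval 0.177 to 0.437) and 31 of 7094 in AAV-sgBaat (0.437%, interval 0.297 to 0.620). The mock library had 2 of 6068 (0.0330%, interval 0.00399 to 0.119), below both AAV libraries. As a share of candidates without Ighd or Fcer2a they were 10.4% in AAV-sgSCR and 25.4% in AAV-sgBaat. Whether they are 2 cells in 1 droplet or single cells was not tested.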

How the results depend on the processing

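No paired analysis was possible because each group was 1 library and the labels give no replicate numbers, and no replicate could be left out. Of 37 named genes, 21 differed at least 2-fold between the AAV libraries. All 21 kept their sign in every setting run on them, with 11 at least 2-fold in 13 settings. Apart from Igkc, these genes were picked as the 10 highest and 10 lowest ratios in the same cells. A kept sign was therefore likely in advance and is no separate support. The precursor share of the B lineage was 16% (AAV-sgSCR) and 15.9% (AAV-sgBaat) with at least 2 rule UMIs, 0.0334% (mock), 13.6% and 13.1% with at least 3, and 27.5% and 38.0% with at least 1000 genes and 2000 UMIs, and 5.17% and 3.39% of barcodes with under 2 Cd3 UMIs. The cycling share was 10.2% in AAV-sgSCR under stricter foreign limits, 21.9% and 38.9% thinned to 2000 UMIs, 26% and 40.7% without thinning, and 23.2% and 29.7% with 1 UMI enough. The 81 genes higher in AAV-sgBaat became 166 under stricter foreign limits, 141 relative to the median gene, 224 with a mean over cells, 53 in SLC-low cells, 228 with a minimum of 10 UMIs and 5 cells, 22 with 50 UMIs and 8 with 100 UMIs. The 523 lower genes became 208 at a limit of 5% mitochondrial UMIs, 293 under stricter foreign limits, 224 in cells without Mki67 and Top2a, 319 in SLC-high cells, 141 with 50 UMIs and 51 with 100 UMIs. Fewer cells and fewer genes read are part of several of these settings, and otherwise the cause was not tested. List medians also moved. Mitochondrial transcripts had -1.07 with at least 3 rule UMIs, -0.61 at 5% mitochondrial UMIs, -1.15 in SLC-high cells, -0.60 in SLC-low cells, -1.02 without foreign cells, -0.89 with a mean over cells, -0.85 relative to the median gene and -0.87 under stricter foreign limits. The pre-B receptor list had -0.23 with 1000 genes and 2000 UMIs, -0.21 and -0.20 with at least 2 and 3 rule UMIs, 0.16 at 5% mitochondrial UMIs, 0.064 without Mki67 and Top2a, -0.27 without foreign cells, 0.090 in SLC-low cells and -0.37 under stricter foreign limits. Recombination genes changed sign to 0.24 at 5% mitochondrial UMIs, 0.20 without Mki67 and Top2a and 0.12 in SLC-low cells. Proliferation genes had 0.20, 0.11 and 0.23 in the same settings. Homing genes had 0.10 and mature B genes -0.14 in SLC-high cells, and endoplasmic reticulum stress genes 0.40 without Mki67 and Top2a. Leaving out foreign cells, either SLC set alone, 10 cells counted over both libraries and the minimum of 100 UMIs were chosen after seeing the data.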

Other observations

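Heavy chain transcripts of another class were higher in SLC-high than SLC-low cells. Ighg2b, the constant part of an IgG heavy chain, was at 82.0 CPM in SLC-high and 30.7 CPM in SLC-low cells of AAV-sgSCR, and at 137 and 60.0 CPM in AAV-sgBaat, log2 differences of 1.42 (interval 0.59 to 2.32) and 1.19 (0.19 to 2.34). SLC-high cells had 53 UMIs in 11 cells and 47 UMIs in 14 cells, and T cells had 1.86 and 0.624 CPM. The higher set was the same in both libraries, although 1 AAV-sgSCR cell held 17 of the 53 UMIs.

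Variable gene transcripts were spread over many genes. AAV-sgSCR precursors had 27 UMIs over 19 heavy chain variable genes in 23 cells and 57 UMIs over 26 kappa variable genes in 48 cells. AAV-sgBaat precursors had 12 UMIs over 12 heavy chain genes in 12 cells and 13 UMIs over 9 kappa genes in 10 cells. The kappa gene Igkv19-93 had 8 UMIs in 7 AAV-sgSCR cells. At this depth most cells had no variable gene UMI, so the number of clones could not be read.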
